A study of Homo sapiens with 8 samples.

Results

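Chromatin modifiers and remodellers were followed as a group of genes through an m6A comparison of CSTF2-knockout and parental liver cancer cells. Members were matched by name, under a rule chosen with earlier results of these data known. The rule names BPTF, EP300, CREBBP, EZH1, EZH2, INO80, EP400, ATRX, DOT1L and NSD1 to NSD3. It also takes every gene named KMT, KDM, KAT, SETD, HDAC, SIRT, CHD, ARID, TET or DNMT with a number, or SMARC with a letter. RefSeq holds 115 protein-coding genes of this kind that were placed in a class, and 102 of them appeared among the 12058 gene names of the authors' deposited table. HUH7 listed 96 of them among 10447 genes, PLC/PRF/5 listed 69 among 5477, and 63 were listed in both lines. They were divided into 37 writers, 41 erasers and 37 remodellers. Writers add methyl or acetyl groups to histones or methyl groups to DNA, and erasers remove them. Most remodellers move or evict nucleosomes with the energy of ATP or belong to complexes that do. The remodeller class also holds 7 ARID genes outside SWI/SNF, to which this description need not apply.

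HUH7 and PLC/PRF/5 are human lines established from hepatocellular carcinoma. In each line, CSTF2-knockout cells made with CRISPR-Cas9 were set against the parental cells, and each genotype gave 1 m6A immunoprecipitate (IP) and 1 input library of poly(A) RNA, 8 libraries in 8 groups. CSTF2 is an RNA-binding protein of the cleavage stimulation factor, which helps to form mRNA 3′ ends. Whether the knockout lines are single clones or pools is not given in the sources used here. No value had a replicate, so no difference below can be set against a spread between replicates and no test was possible.

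The values are the authors' log2 fold changes, 1 for each gene in HUH7 and 1 for each row of PLC/PRF/5, where a gene name can recur and its rows are taken as peaks. The header does not say which genotype is the numerator, so signs are given as deposited and point to neither the knockout nor the parental cells. Read counts and depth were not analysed here. CSTF2 was not listed in HUH7 and had 1 PLC/PRF/5 peak at -0.50 in the authors' deposited table, which is no check of the knockout. Of 9 hepatocyte markers, 6 were listed in HUH7 and 7 in PLC/PRF/5. ALB was listed only in PLC/PRF/5, and AFP and TTR in neither line. Of 7 markers of other cell types, 5 were listed in HUH7 and 2 in PLC/PRF/5. Expression levels were not analysed here, so fewer transcripts and a changed m6A signal per transcript cannot be told apart, and a missing name is no evidence of a silent gene.

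N6-methyladenosine (m6A) is the most common internal mark of mRNA, laid down by the METTL3-METTL14 complex at a short consensus whose core is often GGAC followed by T, and it affects splicing, export, decay and translation of the transcript that carries it. Many chromatin regulators are encoded by long genes with large coding exons. Histone acetylation loosens nucleosome contacts and is removed by deacetylases, histone methylation marks active or silent genes according to the residue, and TET enzymes oxidise the methyl groups that DNA methyltransferases place on cytosine. In liver, such enzymes set the genes of hepatocyte identity, and ARID1A, ARID2 and KMT2 genes are among those recurrently mutated in liver cancer.

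In HUH7, the chromatin genes lay on both sides of 0. Of the 96 listed genes, 46 (47.9%) had a size (absolute log2 fold change) under 0.5, against 42.3% of all genes. A log2 fold change of 1 or more was given to 18 chromatin genes, where 22.2% of all genes passed, and one of -1 or less to 12, where 14.6% of all genes passed. In either direction, 30 of 96 (31.2%) passed, against 36.9% of all genes. The median of the chromatin genes was 0.13 and that of all genes 0.20. Positive signs belonged to 55 and negative signs to 41 of them, or 57.3% positive, against 60.8% of all genes. These shares were not tested against the column as a whole.

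A class of extreme values has to be read apart from the rest. In the HUH7 column, 16 values above 1 in size recurred to 6 decimals in 10 or more genes each, and on neither side of 0 did any other value lie farther out. The 8 positive ones stood to each other as the whole numbers 3 to 10, within 0.001, and so did the 8 negative ones. Each positive repeated value was held by 53 to 68 genes and each negative one by 85 to 110 genes. Among the chromatin genes, 2 held a positive repeated value, where 4.7% of all genes did, and 9 a negative one, where 7.89% of all genes did. Without them 19 of 85 chromatin genes (22.4%) had a size of 1 or more, 16 positive and 3 negative, with a median of 0.21. Over all genes without a repeated value, 27.8% had a size of 1 or more and the median was 0.23. How the repeated values arose was not tested, and their sizes are not ranked below.

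**Figure D1:**
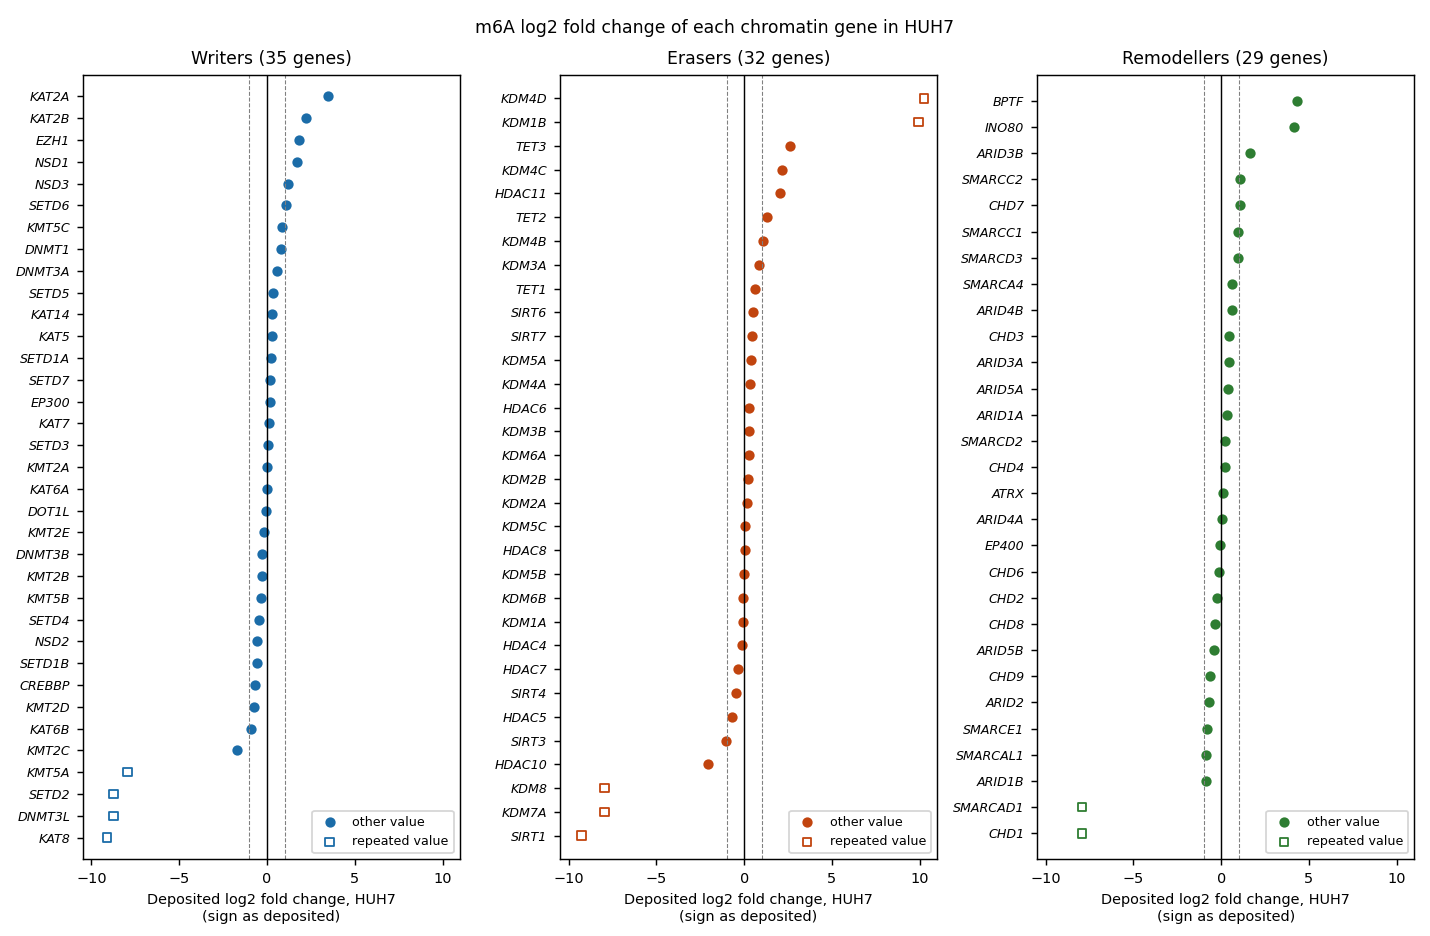
Deposited HUH7 log2 fold changes of 35 writers, 32 erasers and 29 remodellers, each panel sorted by value, with the sign as deposited. Dashed lines stand at -1 and 1 and open squares mark repeated values. In all 3 classes most genes lie between the dashed lines, and every value beyond 5 in size is a repeated one.

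Writers were balanced between the signs in HUH7, with 17 positive and 18 negative genes and a median of -0.017, which was 0.13 without the repeated values. Their positive share was 48.6%, against 60.8% of all genes. Of the 35 listed writers, 11 (31.4%) had a size of 1 or more, 4 of them through repeated values, against 36.9% of all genes. The highest were the paired acetyltransferases of the SAGA and ATAC coactivators, KAT2A (GCN5; chromosome 17, 42113111 to 42121367, GRCh38) at 3.47 and KAT2B (PCAF; chromosome 3, 20040446 to 20154404) at 2.24 in the authors' deposited table. Both were positive, and neither was listed in PLC/PRF/5.

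The other acetyltransferases gave no common direction in HUH7. EP300 and CREBBP, the paralogous coactivators that acetylate H3K27 at enhancers, had 0.14 and -0.68 in the authors' deposited table. The MYST family acetyltransferases KAT6A and KAT6B, which share the BRPF1 complex, had -0.026 and -0.90 in the authors' deposited table. KAT5 (TIP60, 0.29), KAT7 (HBO1, 0.13) and KAT14 (0.29) also lay within 0.5 of 0 in the authors' deposited table. KAT8 (MOF), which acetylates H4K16, held the repeated value -9.11 in the authors' deposited table. Of 10 acetyltransferase genes, 6 were positive and 4 negative, with a median of 0.13.

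Of 7 genes classed as methyltransferases of H3K4, the mark of promoters and enhancers, 1 was positive and 6 negative in HUH7. Over all genes 60.8% were positive. Of the 7 values, 4 were under 0.5 in size, and their lean to negative values was not tested. The set includes KMT2E, which has little activity of its own. SETD1A was the positive one of the 7, at 0.25 in the authors' deposited table. The authors' deposited table gave KMT2C, one of the enhancer methyltransferases, -1.70, and its paralogue KMT2D -0.72. SETD1B (-0.58), KMT2B (-0.31), KMT2E (-0.15) and KMT2A (-0.017) followed in the authors' deposited table. The median of the 7 was -0.31, with KMT2C alone past 1 in size. KMT2C has 4 pseudogenes by name in RefSeq, and whether reads were divided between the copies was not tested.

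Methyltransferases of H3K36, H3K27, H3K79 and H4K20 had values of both signs in HUH7. NSD1 and NSD3, which dimethylate H3K36, had 1.70 and 1.17, whereas their paralogue NSD2 had -0.56 in the authors' deposited table. SETD2, which makes H3K36 trimethylation and through it guides m6A deposition, held the repeated value -8.75 in the authors' deposited table. EZH1, a catalytic subunit of Polycomb repressive complex 2, had 1.83 in the authors' deposited table, and its paralogue EZH2 was not listed in HUH7. DOT1L, the H3K79 methyltransferase, was near 0, at -0.070 in the authors' deposited table. Among the H4K20 methyltransferases, KMT5B had -0.36, KMT5C 0.84 and KMT5A the repeated value -7.94 in the authors' deposited table, and KMT5A has 3 pseudogenes by name.

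The remaining writers, DNMT3L apart, stayed below or just past 1. The SETD genes SETD3 (0.071), SETD7 (0.19), SETD5 (0.33) and SETD4 (-0.48) were small and SETD6 stood at 1.08 in the authors' deposited table. Background knowledge places SETD3 outside chromatin, as the histidine methyltransferase of actin. The maintenance DNA methyltransferase DNMT1 (0.78) and the de novo enzymes DNMT3A (0.56) and DNMT3B (-0.30) did not reach 1 in the authors' deposited table. DNMT3L, their catalytically inactive partner, held the repeated value -8.75 in the authors' deposited table.

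Erasers had 21 positive and 11 negative HUH7 values among 32 listed genes, 65.6% positive against 60.8% of all genes, with a median of 0.24 against 0.20. A size of 1 or more was given to 12 of them (37.5%), 5 through repeated values, against 36.9% of all genes. The TET dioxygenases were the subclass with all members listed and positive: TET1 had 0.59, TET2 1.33 and TET3 2.59 in the authors' deposited table. TET3 lies on chromosome 2 (73983631 to 74135498, GRCh38) and had the highest unrepeated value of any eraser.

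Histone demethylases made up 17 of the listed erasers, 13 positive and 4 negative, with a median of 0.27. KDM4C (2.14) and KDM4B (1.08), which act on trimethylated H3K9 and H3K36, passed 1, and their paralogue KDM4A had 0.33 in the authors' deposited table. KDM3A, an H3K9 demethylase induced by hypoxia, had 0.87 and its paralogue KDM3B 0.28 in the authors' deposited table. The H3K36 demethylases KDM2A (0.15) and KDM2B (0.21) and the H3K4 demethylases KDM5A (0.38), KDM5B (0.0053) and KDM5C (0.055) were all small and positive in the authors' deposited table. The H3K27 demethylases KDM6A (0.27) and KDM6B (-0.039) and the LSD1 gene KDM1A (-0.091) lay near 0 in the authors' deposited table. Repeated values were given to KDM4D (10.24), KDM1B (9.92), KDM7A (-7.94) and KDM8 (-7.94) in the authors' deposited table.

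Deacetylases and sirtuins were spread around 0 in HUH7. HDAC11 (2.02), the class IV enzyme, and HDAC10 (-2.06), which deacetylates polyamines, lay farthest out on either side among unrepeated values in the authors' deposited table. The class IIa genes HDAC4 (-0.14), HDAC5 (-0.71) and HDAC7 (-0.33) were negative, while the tubulin deacetylase gene HDAC6 (0.28) and HDAC8 (0.049) were positive in the authors' deposited table. HDAC1, HDAC2 and HDAC3, the catalytic subunits of the nuclear co-repressor complexes, were not listed in HUH7. Of the NAD-dependent sirtuins, SIRT6 (0.50) and SIRT7 (0.44) act in the nucleus and SIRT3 (-1.05) and SIRT4 (-0.45) in mitochondria, and these 4 values stood in the authors' deposited table. SIRT1, which deacetylates p53 and histones, held the repeated value -9.27 in the authors' deposited table.

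Remodellers held the 2 largest unrepeated values of all the chromatin genes. BPTF, the largest subunit of the NURF complex and a reader of H3K4 trimethylation (chromosome 17, 67825503 to 67984378, GRCh38), had 4.32 in the authors' deposited table. INO80, the ATPase that exchanges and spaces nucleosomes at promoters and forks (chromosome 15, 40978880 to 41116280), had 4.14 in the authors' deposited table. Among the 29 listed remodellers, 17 were positive and 12 negative with a median of 0.22. The positive share was 58.6%, against 60.8% of all genes. Without ARID3 to ARID6 it was 52.2%, with a median of 0.11. A size of 1 or more was reached by 7 (24.1%), against 36.9% of all genes. Of the 7, CHD1 and SMARCAD1 held the repeated value -7.94 in the authors' deposited table.

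The SWI/SNF subunits that the naming rule takes in stayed within about 1 of 0 in HUH7, unlike some partners given further below. The core scaffold genes SMARCC1 (0.97) and SMARCC2 (1.09), which are paralogues, had like values in the authors' deposited table. SMARCD3 (0.97) and SMARCD2 (0.22) were also positive in the authors' deposited table. The ATPase gene SMARCA4 (BRG1) had 0.63 in the authors' deposited table, and the alternative ATPase gene SMARCA2 was listed in neither line. The alternative DNA-binding subunits split by sign: ARID1A had 0.30, and ARID1B -0.87 and ARID2 -0.68 in the authors' deposited table. SMARCE1 (-0.79), which has 7 pseudogenes by name, was negative too in the authors' deposited table. SMARCB1 and SMARCD1 were listed in neither line.

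CHD remodellers and other members gave mostly small values in HUH7. CHD7, mutated in CHARGE syndrome, had 1.06 in the authors' deposited table. CHD3 (0.43) and CHD4 (0.22), the alternative ATPases of the NuRD complex, were positive, and CHD2 (-0.23), CHD6 (-0.11), CHD8 (-0.36) and CHD9 (-0.64) negative in the authors' deposited table. ATRX (0.11), EP400 (-0.059) and SMARCAL1 (-0.86), which restarts stalled forks, did not reach 1 in the authors' deposited table. Among ARID genes outside SWI/SNF, ARID3B had 1.62 in the authors' deposited table. ARID4B (0.59), ARID3A (0.42), ARID5A (0.36), ARID4A (0.061) and ARID5B (-0.40) were smaller in the authors' deposited table.

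Chromatin genes were named more often than other protein-coding genes in both lines, most of all in PLC/PRF/5. HUH7 listed 83.5% of the 115 genes, against 50.3% of 20056 protein-coding genes in RefSeq, and PLC/PRF/5 listed 60.0%, against 23.4%. They were also longer, with a median gene length of 64.2 kb against 24.1 kb, introns included. Among genes of 50 to 200 kb, a band chosen after the data were seen, PLC/PRF/5 listed 45 of 56 chromatin genes (80.4%) and 35.3% of all protein-coding genes. Expression, which was not analysed here, may differ between these sets, and its part in the listing was not tested.

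The classes differed in how many members PLC/PRF/5 listed. Writers were listed for 26 of 37 genes (70.3%), erasers for 16 of 41 (39.0%) and remodellers for 27 of 37 (73.0%). Among erasers, 3 of 18 deacetylases and sirtuins were listed, all of class I (HDAC1, HDAC2 and HDAC8), and 13 of the 23 demethylase and TET genes. No class II or class IV deacetylase and no sirtuin was listed in PLC/PRF/5. By contrast, all 11 methyltransferase genes of H3K4 and H3K36 were listed, with 36 peaks, and 9 of 10 CHD genes, with 29 peaks. Median gene length was 29.9 kb for deacetylases and sirtuins, 101 kb for the H3K4 and H3K36 genes and 101 kb for CHD genes. The part of length in the listing was not tested. Within the band of 50 to 200 kb, 16 of 19 writers, 11 of 14 erasers and 18 of 23 remodellers were listed.

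A listed chromatin gene carried more PLC/PRF/5 peaks than a listed gene of any kind. The 69 genes had 180 peaks, 2.61 per gene, against 1.74 over all 5477 names, and 30 of them (43.5%) had 3 or more peaks, against 16.3% of all. Remodellers had 3.19 peaks per gene, writers 2.65 and erasers 1.56. Within the band of 50 to 200 kb the chromatin genes had 2.82 peaks per listed gene and all protein-coding genes 2.09. There the order of the first 2 classes turned, with 3.11 peaks per listed remodeller, 3.25 per writer and 1.73 per eraser. Across the 69 genes, longer genes had more peaks (Spearman rho 0.43, Pearson r 0.40), and across all 4966 listed genes with a length the values were 0.25 and 0.19. These correlations run over genes of the same libraries and are given as a description.

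**Figure D2:**
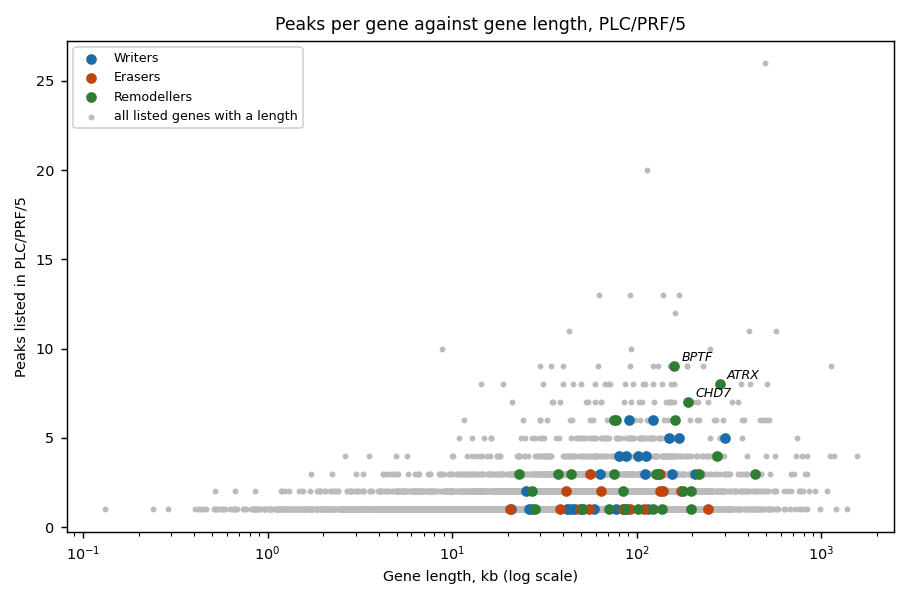
Number of PLC/PRF/5 peaks of each gene against gene length in kb on a log axis, with chromatin genes coloured by class over all 4966 listed genes with a length in grey. BPTF (9 peaks), ATRX (8) and CHD7 (7) have the most peaks among the chromatin genes, and erasers have 3 peaks at most.

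Nearly all chromatin genes had a positive median in PLC/PRF/5, as did nearly all genes of that column. The median of a gene's peaks was positive for 67 of 69, or 97.1%, against 90.3% of all genes. It was 1 or more for 63, where 84.5% of all genes passed, and -1 or less for 0, where 4.47% of all genes passed. Counted by peak, 158 of 180 were positive, 87.8% against 86.0% of all peaks, and by gene the chromatin medians rested on more peaks. The median over gene medians was 5.38 for chromatin genes and 5.45 for all genes. KDM3A and KDM3B were the 2 genes with a negative median.

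The PLC/PRF/5 column filled its range evenly, and this bounds what its values can say. Of all peaks, 20.3% lay below 1, and each of the bands 1 to 4, 4 to 7, 7 to 10 and 10 and above held 19.7 to 20.1%. The chromatin genes had 33, 43, 37, 40 and 27 peaks in these bands. Peaks of the same gene were far apart: over the 30 chromatin genes with 3 or more peaks the median distance from the lowest to the highest peak was 9.73 log2 units, against 9.19 over the 892 such genes of the column. Peaks of both signs were found in 18 of the 69 genes. What the rows of this column measure beyond their label was not tested.

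**Figure D3:**
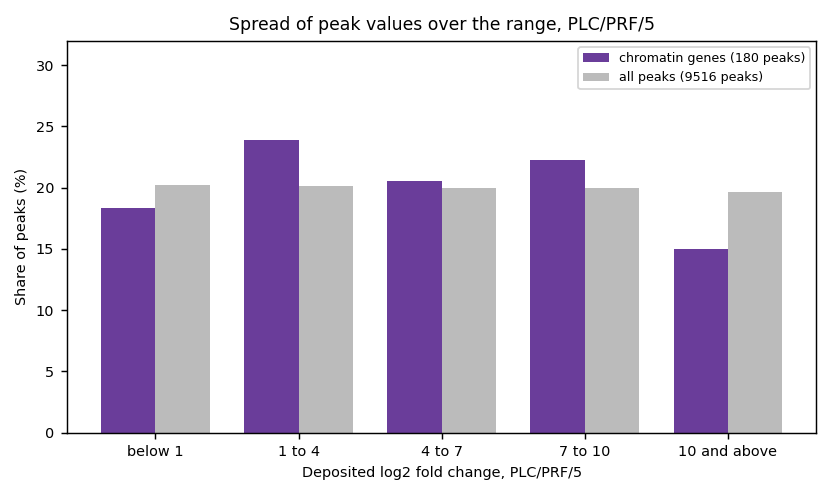
Share of PLC/PRF/5 peaks in 5 bands of the deposited log2 fold change, for 180 peaks in chromatin genes (left bars) and all 9516 peaks (right bars). All peaks are spread evenly, near 20% per band, and the chromatin genes range from 15.0% at 10 and above to 23.9% between 1 and 4.

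The most peak-rich chromatin gene was BPTF, with 9 PLC/PRF/5 peaks at 0.67, 0.72, 0.76, 2.28, 3.28, 4.03, 5.08, 11.41 and 12.43 in the authors' deposited table. All were positive, as was its HUH7 value. ATRX, which deposits histone H3.3 in heterochromatin with DAXX, had 8 peaks at -1.70, -1.61, 1.56, 2.43, 2.44, 5.53, 9.59 and 12.02 in the authors' deposited table. CHD7 had 7 peaks at -1.0, 3.19, 6.63, 7.49, 9.06, 10.30 and 12.56 in the authors' deposited table. Both genes had peaks of either sign.

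Other remodellers with several peaks ranged from narrow to wide sets. CHD1, a remodeller tied to elongating RNA polymerase II, had 6 peaks from -1.91 to 9.41, against its repeated negative HUH7 value, in the authors' deposited table. The ISWI ATPase genes SMARCA1 (6 peaks, -1.13 to 8.11) and SMARCA5 (3 peaks, 3.78 to 6.80) were listed in PLC/PRF/5 and not in HUH7, as the authors' deposited table shows. ARID4B, a partner of the Sin3 deacetylase complex, had 6 positive peaks from 2.05 to 12.97, and ARID4A 3 peaks at -2.09, 6.81 and 8.93 in the authors' deposited table. ARID1B had the closest set of 3 peaks among the chromatin genes, at 8.15, 8.79 and 10.05 in the authors' deposited table. SMARCE1 had the widest, at -1.89, 6.59 and 11.91 in the authors' deposited table.

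The remaining CHD genes and INO80 family members were positive on balance. CHD9 (0.31, 7.57, 9.85 and 11.32), CHD6 (3.39, 8.35 and 10.95) and CHD2 (3.44, 3.70 and 10.97) had positive peaks only in the authors' deposited table. CHD4, the main NuRD ATPase gene, had -1.88, 1.61 and 10.33 in the authors' deposited table. EP400 had 1.60, 4.65 and 12.49 and INO80 a single peak at 6.14 in the authors' deposited table. CHD3 (8.24), CHD1L (5.51) and CHD8 (5.18) had 1 peak each in the authors' deposited table. The lowest and the highest medians of the remodeller class were those of SMARCA4 (0.28, 1 peak) and ARID4B (9.57), an ARID gene outside SWI/SNF.

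Among writers in PLC/PRF/5, KAT6A and KMT2A had the most peaks, 6 each. KAT6A had 0.013, 2.33, 7.53, 8.62, 9.89 and about 10 and KMT2A, the MLL gene rearranged in leukaemia, 2.38, 2.45, 6.85, 8.09, 8.87 and 11.64 in the authors' deposited table. None of these 12 peaks was negative, while both HUH7 values lay near 0. SETD2 had 5 positive peaks at 1.14, 3.03, 3.86, 6.88 and 9.69 and KMT2C 5 positive peaks at 1.90, 4.26, 4.95, 6.48 and 8.93 in the authors' deposited table. In HUH7 both were past 1 in size with the opposite sign.

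The H3K4 methyltransferases had no negative PLC/PRF/5 peak among 19, and the H3K36 methyltransferases had 4 among 17. Of all 9516 peaks, 1328 were negative. Several peaks of each set belonged to the same gene, and the difference was not tested. KMT2E, a SET-domain protein with little activity of its own, had 2.31, 8.13, 9.88 and 10.09 in the authors' deposited table. NSD1 had -1.57, 3.30, 6.41, 7.59 and 7.91 and NSD3 -1.83, -0.64, 2.86 and 9.55 in the authors' deposited table. NSD2 had 8.15 and 9.97 beside another peak just below 0 in the authors' deposited table. NSD3 had the lowest median of the writers, 1.11, and SETD1B, with 1 peak at the top of the range, the highest.

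The acetyltransferases had 18 peaks in PLC/PRF/5, 3 of them negative, where 1328 of all 9516 peaks were negative. EP300 had -0.44, 0.18, 6.73 and 10.85, CREBBP -1.77, 1.78 and 7.57 and KAT6B -1.25, 2.76 and 6.58 in the authors' deposited table. Each of these 3 coactivator genes had 1 negative peak. SETD5, mutated in an intellectual disability syndrome, had -0.79, 5.00, 8.77 and 10.41 and SETD7 -0.50, 2.03 and 7.30 in the authors' deposited table. Single peaks were given to EZH2 (6.35) and EZH1 (3.09) of Polycomb and to DNMT3A (5.38) in the authors' deposited table. DNMT1 and DNMT3B were not listed in PLC/PRF/5.

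By gene median, erasers in PLC/PRF/5 ranged from the class I deacetylases at the top to the KDM3 genes at the bottom. HDAC1 had 11.60 and 12.12, HDAC2 11.45 and HDAC8 10.90 in the authors' deposited table, and HDAC1 has 2 pseudogenes by name. TET2 had 0.70, 9.25 and 9.27 and TET1 -1.43 and 8.70 in the authors' deposited table. The KDM3 genes were the ones with a median below 0, with KDM3A at -0.88, -0.32 and 2.43 and KDM3B at -0.75 in the authors' deposited table. KDM5A (10.39) lay far from its paralogues KDM5B (0.59) and KDM5C (0.40) in the authors' deposited table. Of 25 eraser peaks, 4 were negative, against 9 of 69 for writers, 9 of 86 for remodellers and 1328 of 9516 over all peaks.

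**Figure D4:**
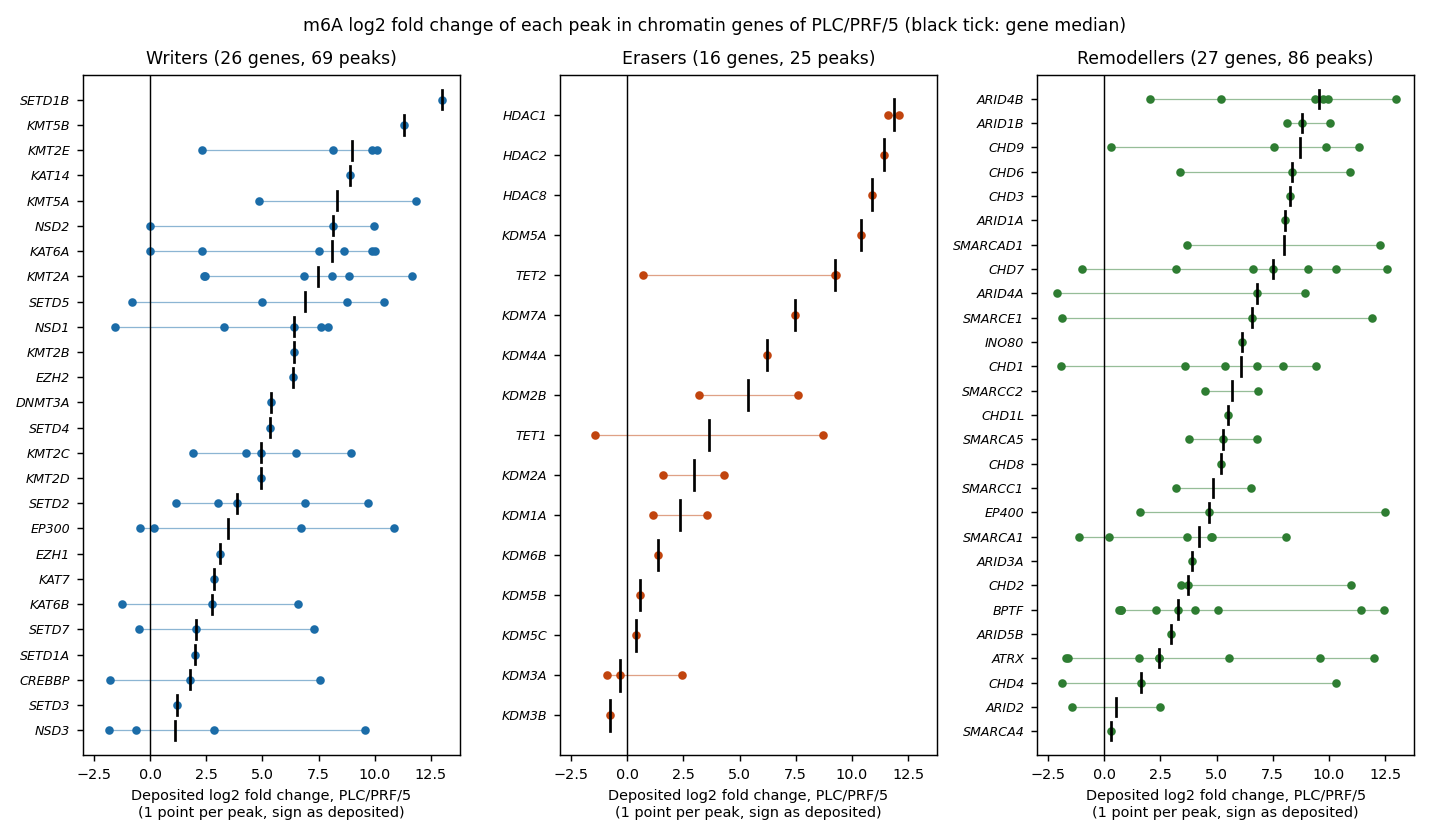
Each point is the deposited log2 fold change of 1 PLC/PRF/5 peak, in 26 writers (69 peaks), 16 erasers (25 peaks) and 27 remodellers (86 peaks), with a line from lowest to highest peak and a black tick at the gene's median. Peaks of the same gene spread widely, and KDM3A and KDM3B have the medians below 0.

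For the 63 chromatin genes listed in both lines, the signs can be set side by side. Equal signs were found for 33 of 63 (52.4%), against 56.9% of 3863 shared genes with a sign in both lines, assuming that both columns use the same direction. All 33 were positive in both lines, 28 were negative in HUH7 and positive in PLC/PRF/5, 2 the reverse and 0 negative in both. By class, equal signs were found for 11 of 25 writers, 9 of 14 erasers and 13 of 24 remodellers. The HUH7 value and the PLC/PRF/5 median had a Spearman rho of -0.13 and a Pearson r of -0.15 over the 63 genes, and -0.0025 and -0.00087 over all 3866 shared genes, given as a description across genes.

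Of the shared chromatin genes, 14 had an absolute value of 1 or more in both lines, 8 positive in both and 6 negative in HUH7 alone. As shares these were 22.2%, 12.7% and 9.52% of the 63, against 26.8%, 15.2% and 10.4% of all shared genes. The 8 were NSD1, NSD3 and EZH1 among writers, TET2 among erasers and BPTF, INO80, CHD7 and SMARCC2 among remodellers. NSD3, CHD7 and NSD1 also had PLC/PRF/5 peaks below 0. The 6 were KMT2C, SETD2, KMT5A, KDM7A, CHD1 and SMARCAD1, and all of these but KMT2C held a repeated HUH7 value. KDM7A had a single PLC/PRF/5 peak at 7.47, KMT5A peaks at 4.83 and 11.83 and SMARCAD1 peaks at 3.68 and 12.28 in the authors' deposited table.

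**Figure D5:**
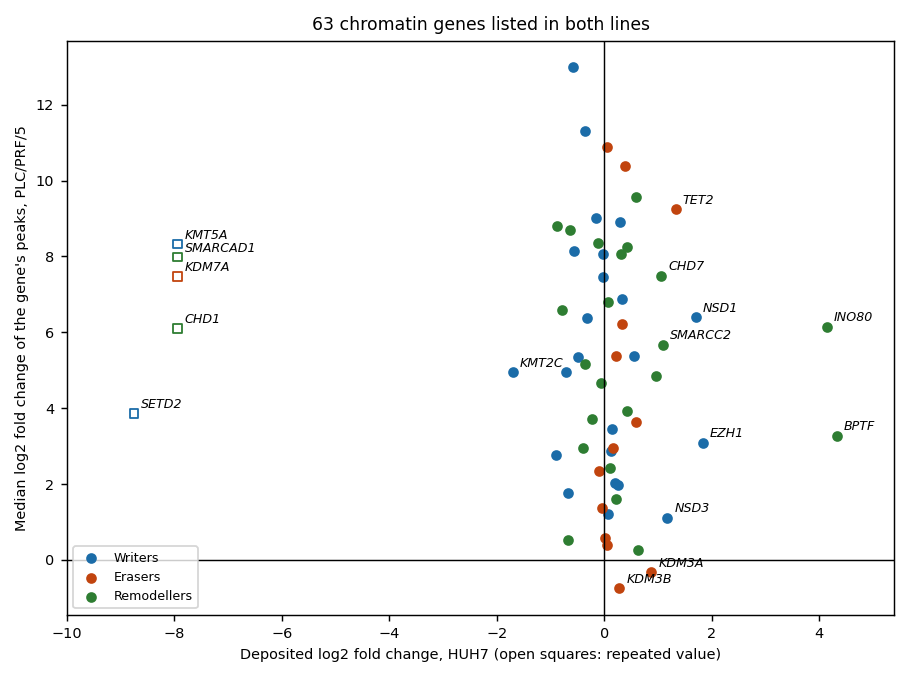
HUH7 log2 fold change against the median log2 fold change of the gene's PLC/PRF/5 peaks for 63 chromatin genes, coloured by class, with open squares for repeated HUH7 values and names for genes past 1 in HUH7 or below 0 in PLC/PRF/5. Most genes lie in a vertical band near 0 in HUH7 that spans the whole PLC/PRF/5 range.

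Paralogues of the same function did not always carry like values in HUH7. Of 31 pairs, 25 had both genes listed in HUH7: 9 pairs were both positive, 6 both negative and 10 of opposite sign. Over all genes 60.8% were positive, and signs in pairs of unrelated genes were not counted for comparison. NSD2 was paired with both NSD1 and NSD3. In the 23 pairs without a repeated value the median absolute difference was 0.82, and 7 pairs differed by 1 or more. NSD1 exceeded NSD2 by 2.26 log2 units, the largest such difference, and NSD2 differed from NSD3 by -1.73. CHD7 exceeded CHD8 by 1.42, KAT2A exceeded KAT2B by 1.23, and ARID1A exceeded ARID1B by 1.17. TET2 differed from TET3 by -1.26 and KMT5B from KMT5C by -1.19. KDM2A with KDM2B and SMARCC1 with SMARCC2 were the closest, at differences of -0.055 and -0.12. In PLC/PRF/5, 20 pairs were listed, and 19 had a positive median in both genes, where 90.3% of all genes had a positive median.

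Complex partners that the naming rule leaves out also went both ways in HUH7. Of 129 such genes in 6 lists, 113 were listed, 61 positive and 52 negative, with a median of 0.076, and 32 had a size of 1 or more. The positive share was 54.0%, against 60.8% of all genes, and the share past 1 was 28.3%, against 36.9%. Polycomb partners had 15 positive and 10 negative genes, from CBX6 (2.58) and PCGF1 (2.24) to SUZ12 (-1.03) and RYBP (-1.03) in the authors' deposited table. COMPASS partners, which serve the KMT2 and SETD1 enzymes, had 10 positive and 3 negative genes, from CXXC1 (2.03) and MEN1 (1.17) to DPY30 (-0.36) and ASH2L (-0.24) in the authors' deposited table. NuRD, Sin3 and NCoR partners had 10 positive and 9 negative genes, with RCOR3 (1.25), GATAD2B (1.22), MBD3 (-2.10) and SAP130 (-1.35) farthest out among unrepeated values in the authors' deposited table.

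Partners of SWI/SNF and of the acetyltransferases were split as well. SWI/SNF partners had 6 positive and 6 negative genes, with BCL7C (1.40), BCL7B (0.79), SS18L1 (-1.55) and BCL7A (-0.67) farthest out among unrepeated values in the authors' deposited table. SAGA and NuA4 partners had 13 positive and 16 negative genes and a median of -0.11. MSL2, which directs KAT8 to H4K16, had 5.18, the highest unrepeated value of all 6 lists, and YEATS4 (1.37), ING5 (-1.74) and EPC2 (-1.37) followed in that list in the authors' deposited table. Genes of H3K9 methylation and HP1 had 7 positive and 8 negative members, from SETDB2 (4.40) and TRIM28 (3.24) to SETDB1 (-1.59) and ATF7IP (-0.77) among unrepeated values in the authors' deposited table. SETDB1 and its cofactor ATF7IP had the opposite sign to TRIM28, the co-repressor that recruits them. In PLC/PRF/5, 59 of the 129 genes were listed with 106 peaks, where 23.4% of all protein-coding genes were listed. Of the 59, 48 had a positive and 11 a negative median. This positive share was below the 90.3% of all genes and the 97.1% of the chromatin genes, and the differences were not tested.

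Peak positions and the sequence at the measured sites were not analysed here. The m6A consensus in the form GGACT was searched on the sense strand within the first 50 transcribed bases of the RefSeq start windows of GRCh38.p14, the stretch those windows hold of each transcript. It was found in 6 of 161 windows of the chromatin genes (3.73%), which covered 96 of the 115 genes, and in 4.90% of all 35116 windows. The 5 of these genes that were listed in either line are shown because they carry the consensus at the start of a RefSeq transcript. The stretches run 5′ to 3′ with the motif in capitals.
KDM5B: cccgtacaactcGGACTtgctgttgctcg
KDM2B: aatggtttcctaGGACTttgcaaacggat
SETD4: ccgggagactgaGGACTtggattgcttaa
SMARCD3: gagagcccagcaGGACTcagaggggag
EZH2: cgacacccggtgGGACTcagaaggc

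The stretches lie on the minus strand at chr1:202808396-202808424 (KDM5B), chr12:121580212-121580240 (KDM2B), chr21:36060500-36060528 (SETD4), chr7:151248645-151248671 (SMARCD3) and chr7:148884242-148884266 (EZH2). Those of SMARCD3 and KDM2B belong to starts inside the gene, whose outer starts lie at 151277149 and 121582279. Whether these cells make the transcripts concerned was not analysed here. An HUH7 value was listed for 4 of the 5 genes, with KDM5B 0.0053, KDM2B 0.21, SETD4 -0.48 and SMARCD3 0.97 in the authors' deposited table. None of these reached 1 in size. The PLC/PRF/5 peaks of KDM2B, SETD4 and EZH2 were positive and past 1, and that of KDM5B was 0.59 in the authors' deposited table. A match is a description of these letters and does not show that the site is methylated.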

How the data were processed

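MeRIP-seq values of 8 libraries, 1 in each of 8 groups, were available as the authors' deposited log2 fold changes, 10447 for HUH7 and 9516 for PLC/PRF/5. Per the file headers they are log2 fold changes of a difference, with the ratio's direction unstated. Per the submitters' processing notes, FastQC 0.12.0 and build hg38 were used. The sources used here do not name the aligner, peak caller, differential test, scaling or filters, and depth is unknown.

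Members were matched by name with Python 3.11.15 and pandas 2.3.3, and all 102 were current RefSeq symbols of GRCh38.p14. Antisense, divergent and pseudogene names were left out, and so was CHD9NB, which is named for its neighbour. A PLC/PRF/5 gene took the median of its peaks. Repeated HUH7 values are those above 1 in size that at least 10 genes hold with the same 6 decimals. Classes were described by counts and medians beside those of all genes, and no test was run. The counting functions were tested on simulated data. The members and lists were chosen with earlier results of these data known. Named genes were those of size 1 or more in HUH7, those near 0, those with 3 or more PLC/PRF/5 peaks, the paralogue pairs, the extremes of each class and, per related list, the 2 largest unrepeated HUH7 values of each sign. Further members were named to account for the group. Alternatives were another fold, leaving out repeated values, other class limits, another value per gene and current symbols.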

Additional observations from a re-analysis of the deposited data

Results flagged for a closer look

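Among the chromatin genes, 5 had an HUH7 value of 1 or more in size and PLC/PRF/5 peaks that were all past 1 with the opposite sign. The HUH7 value was -1.70 for KMT2C against a PLC/PRF/5 median of 4.95 over 5 peaks, and -8.75 for SETD2 against 3.86 over 5 peaks, with the HUH7 values from the authors' deposited table. It was -7.94 for KMT5A, against 8.33 over 2 peaks, for KDM7A, against 7.47 at 1 peak, and for SMARCAD1, against 7.98 over 2 peaks, again in the authors' deposited table. The difference between the lines was not tested, since each line gives 1 comparison, and it assumes that both columns use the same direction. All of these genes but KMT2C held a repeated HUH7 value, so the sizes of their differences are not ranked. How many of all shared genes had every peak past 1 with the opposite sign was not counted. By the PLC/PRF/5 median alone, 6 of 63 chromatin genes (9.52%) and 403 of 3863 shared genes (10.4%) had -1 or less in HUH7 and 1 or more in PLC/PRF/5.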

How the results depend on the processing

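No paired analysis was possible because each group held 1 library and no result came from a test. Without the repeated values, the genes of size 1 or more in HUH7 numbered 19 of 85 in all, 7 of 31 writers and 7 of 27 erasers. Every value left out was past 1 in size, so the shares fell as well. They were 22.4%, 22.6% and 25.9%, against 31.2%, 31.4% and 37.5% with the repeated values. Over all genes the share was 27.8% without the repeated values and 36.9% with them. The writers' median turned to 0.13, and that of H3K9 methylation and HP1 genes to 0.052, against -0.021 with them. At a fold of 0.5 the counts were 50 chromatin genes, 19 writers and 16 remodellers, and at a fold of 2 they were 19, 6 and 4. With the peak of largest absolute value in place of the median, the PLC/PRF/5 median was 8.11 for all chromatin genes, 8.40 for writers and 8.93 for remodellers, since that choice picks the outer peak. Counting every peak gave 160 peaks past 1 in all, 62 in writers, 19 in erasers and 79 in remodellers, and 87.8% positive. The other 51 of 70 comparisons with an alternative kept their sign and stayed within 1.5 times for counts or within the reported value's 95% binomial interval for shares and medians. Inside that interval some medians still moved by over 1.5 times. Without the repeated values the HUH7 median of all chromatin genes was 0.21, against 0.13, and that of SWI/SNF partners 0.22, against 0.11. Without SETD3 to SETD9 the writers' was -0.048, against -0.017, and without ARID3 to ARID6 the remodellers' was 0.11, against 0.22. With the peak of largest absolute value the erasers' PLC/PRF/5 median was 6.84, against 4.51. Matching by current symbols changed no count. Depth and replicate error could not be judged.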
